A study of Mus musculus with 4 samples.

Results

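Macrophages were examined in tumors of the DLA mouse model by droplet single-cell RNA sequencing. They were selected on a summed count of 7 genes, among them the chemokine Ccl2, the acute phase protein Saa3 and the matricellular protein Spp1. They numbered 114 of the 4404 cells kept from 5332 deposited barcodes. DLA is Dalton's lymphoma ascites, a transplantable mouse tumor, here grown after intraperitoneal injection in Swiss albino mice. The control group held 2 libraries of tumors labelled untreated, which a supplement of the study calls vehicle controls, so whether the vehicle was given is not settled. The SP11 group held 2 libraries of tumors from mice that received SP11, an inhibitor of the chaperone HSP90, by mouth at 30 mg/kg for 17 days. All 4 libraries came from single-cell suspensions of tumors grown from the same injected cell line, and no library of tissue without tumor was analysed. The methods speak of independent sets of samples without saying whether a library is 1 animal, so p-values measure only the spread between these libraries.

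Barcodes were kept from 200 detected genes upwards, provided that mitochondrial genes took no more than 10% of the unique molecular identifiers (UMIs). A kept cell was gated as myeloid when it held at most 2 UMIs of the keratins Krt8 and Krt18, at least 4 UMIs of Lyz2, Tyrobp, Fcer1g and Ctss together, fewer than 2 UMIs of the B cell genes Cd79a, Cd79b and Ms4a1, and less than 2% of its UMIs on the neutrophil genes S100a8, S100a9 and Retnlg. A myeloid cell was a member when Ccl2, Ccl7, Saa3, Fabp5, Spp1, Fcgr1 and Cd68 summed to at least 3 UMIs. This sum also had to exceed that of the monocyte genes Fn1, Vcan and Pid1. Control 1 held 25 members, Control 2 held 15, Treated 1 held 42 and Treated 2 held 32. Values of the genes named in the rule chose the cells and are given below as a description, with no test.

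Macrophages take up dying cells, debris and lipid, and they present antigen. Monocytes that enter inflamed tissue or a tumor mature into macrophages, and during that passage they can secrete chemokines such as CCL2, which draws further monocytes through the receptor CCR2. Acute phase proteins, Fc receptors that bind antibody-coated targets, and lipid and lysosome genes are commonly used to describe the states that such cells pass through.

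The members were shallow compared with the tumor cells of the same libraries. Their median UMI counts were 1790 and 2446 for Control 1 and Control 2, and 1302.5 and 2777 for Treated 1 and Treated 2, whereas the keratin-gated tumor cells had medians of 10924, 17155, 8730 and 19584. The median number of detected genes per member was 820.0, 1098, 645 and 1170.5 in the same order. Summed over members, the libraries held 45641, 40587, 58365 and 107348 UMIs. Levels below are UMIs of a gene per 10000 UMIs of these sums. Library values are given in the order Control 1, Control 2, Treated 1, Treated 2 unless stated otherwise. The sums include hemoglobin, which took 0.0263%, 0.0320%, 8.78% and 6.67% of the members' UMIs and so lowers the other levels of treated members. No member's barcode was a member in another library, although pairs of libraries shared 54 to 215 kept barcodes.

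The macrophage identity in the label was checked with markers that the rule did not use. The 16 macrophage markers, which include Apoe, Lgals3, Msr1 and the C1q genes, summed to levels of 86.1, 71.7, 82.6 and 74.2, and 16, 14, 16 and 16 of them had at least 1 UMI. Lgals3 alone stood at 36.2, 31.8, 24.7 and 26.9, so it carried a large part of each sum. Several defining genes were sparse. Adgre1, which encodes F4/80, had 1, 0, 3 and 6 UMIs, and the growth factor receptor gene Csf1r had 3, 8, 14 and 17. Of genes of resident macrophages, Cd163, Vsig4, Lyve1 and the peritoneal factor Gata6 were at 0 UMIs in every library. The wider list of 23 complement and resident macrophage genes was not absent. Of these, 12, 13, 16 and 18 had at least 1 UMI, at summed levels of 23.4, 20.9, 38.6 and 27.9, and 5 were at 0 in every library. In the treated libraries the Fn1-side myeloid cells, defined below, were at 70.4 and 70.1 on the macrophage list with 16 of 16 genes seen. The tumor cells of the 4 libraries were between 16.1 and 19.5. The list thus separated members from tumor cells far more than from Fn1-side cells. The other gated myeloid cells, also defined below, varied more, at 63.8, 36.1, 67.5 and 18.9, and in Treated 2 they lay near the tumor cells. The 7 monocyte markers, 3 of which the rule used, summed to 19.3, 22.2, 18.7 and 24.4 in members and to 62.1 and 65.1 in Fn1-side cells of the treated libraries, with 6 of 7 genes seen in each. The monocyte marker at 0 was Ly6c2, in members as in Fn1-side cells.

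Markers of other cell types differed in how far they were present. The 7 dendritic cell markers summed to 0, 0, 0.514 and 1.02, with Xcr1, Clec9a, Cd209a and Siglech at 0, and the 5 fibroblast and mesothelial markers were at 0 in every library. B cell markers summed to 0.219, 0, 0.514 and 0.838, and T and NK cell markers to 0, 0, 1.71 and 0. Neutrophil markers summed to 1.10, 1.23, 2.57 and 10.7, and S100a9 had 59 of its 71 UMIs of Treated 2 in 1 cell. Keratin markers summed to 4.60, 3.45, 4.11 and 1.58, compared with 56.7, 30.4, 44.8 and 40.1 in the tumor cells. The erythroid markers stood apart, at 2.63 and 3.45 for control members and 878 and 667 for treated members.

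The first question was how common these macrophages were with and without SP11. Of the kept cells of Control 1 they made up 2.73%, with a 95% confidence interval (exact, Clopper-Pearson) from 1.77% to 4.00%. For Control 2 the share was 2.65% (1.49% to 4.33%), for Treated 1 it was 2.29% (1.66% to 3.09%), and for Treated 2 it was 2.93% (2.01% to 4.12%). Counting error is all that such intervals hold. The treated libraries lay on either side of the controls. The mean was 2.69% ± 0.0559 (SD, n = 2) in the control group and 2.61% ± 0.452 (SD, n = 2) in the SP11 group, a difference of −0.0763 points (two-sided exact permutation test, p = 1), and its sign turned to +0.0205 points with a mitochondrial limit of 20%. With 2 libraries against 2 this test cannot give a p below 0.3333.

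Among gated myeloid cells the members were the larger class in the controls and the smaller one after treatment. They made up 73.5% and 75% of the myeloid cells of the controls and 16.6% and 18.2% of those of the treated libraries. The groups did not overlap, with means of 74.3% ± 1.04 (SD, n = 2) and 17.4% ± 1.12 (SD, n = 2), a difference of −56.9 points (two-sided exact permutation test, p = 0.3333, the smallest the design allows). The myeloid cells that made up the rest were few in the controls. Myeloid cells numbered 34 and 20 among control cells, against 253 and 176 among treated ones. Cells on the Fn1 side of the rule, whose Fn1, Vcan and Pid1 sum reached 3 UMIs and was the larger one, numbered 1, 1, 125 and 106. The other myeloid cells, in which both sums were under 3 or tied, numbered 8, 4, 86 and 38.

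**Figure D1:**
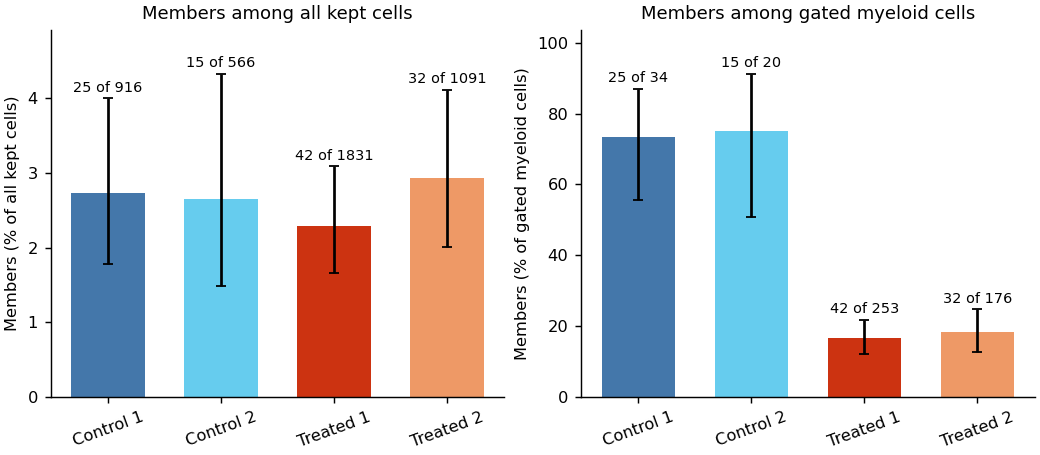
Bars give the members in each library as a percentage of all kept cells (left) and of gated myeloid cells (right), with 95% exact Clopper-Pearson intervals that cover counting error only and the numbers of cells above each bar. The 4 libraries lie between 2.29% and 2.93% of kept cells, while the controls lie at 73.5% and 75% and the treated libraries at 16.6% and 18.2% of myeloid cells.

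The sum of the 7 genes that selected the members had medians of 9, 13, 7 and 14 UMIs per cell, with maxima of 45, 52, 39 and 75. At the threshold of exactly 3 UMIs stood 2, 0, 9 and 1 members, and just outside it 6, 2, 28 and 16 myeloid cells had a sum of 2. A further 2, 1, 25 and 37 myeloid cells reached 3 UMIs without exceeding the sum of the monocyte genes. At least 1 UMI of Ccl2, Ccl7, Saa3 or Spp1 was held by 24, 15, 33 and 30 members, so the remainder held none of these 4 genes, and 0, 0, 7 and 2 members had been selected on Fabp5 and Cd68 alone.

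**Figure D2:**
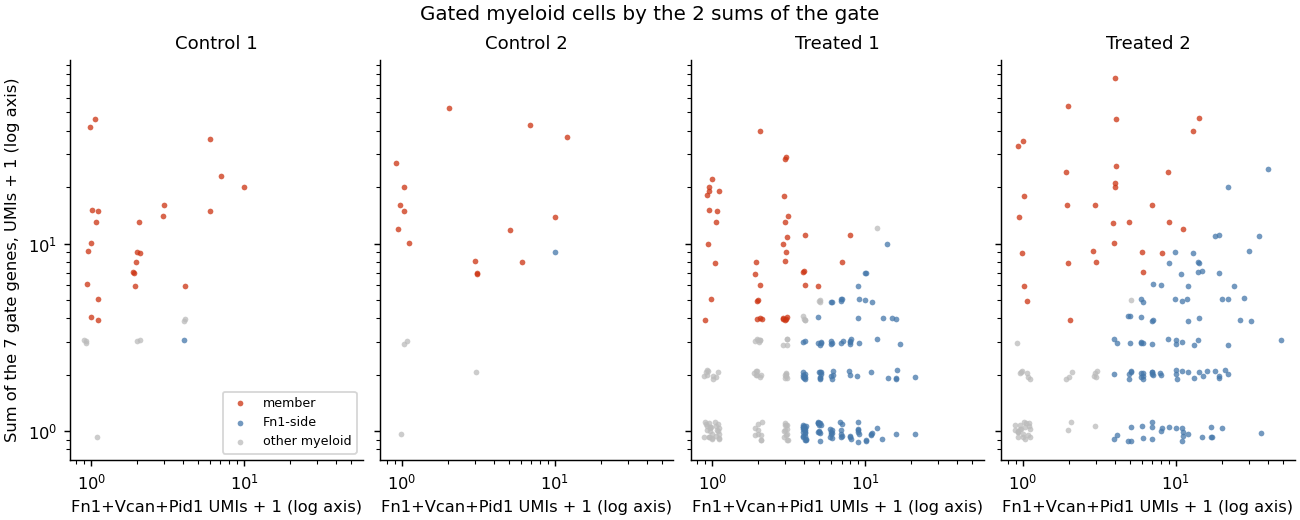
Each point is 1 gated myeloid cell, placed by its UMIs of Fn1, Vcan and Pid1 plus 1 (x, log axis) and its UMIs of the 7 gate genes plus 1 (y, log axis), with a small random shift on both axes, in 1 panel per library. Red points are members (25, 15, 42 and 32 cells), blue points are Fn1-side cells (1, 1, 125 and 106) and grey points are other myeloid cells.

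Among the genes of the rule, the chemokines Ccl2 and Ccl7 are both ligands of CCR2. Ccl2 stood at levels of 14.2, 17.7, 7.02 and 8.76, from 65, 72, 41 and 94 UMIs in 20, 14, 19 and 25 cells. Both treated libraries were below both controls. Ccl7 stood at 7.45, 4.93, 4.11 and 3.73, also lower in both treated libraries. Over all members Ccl2 was seen in 78 cells and Ccl7 in 37, and 31 cells held both.

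Ccl2 was rare in the tumor cells of the same libraries. A UMI of Ccl2 was found in 80.0%, 93.3%, 45.2% and 78.1% of members and in 0.830%, 1.70%, 0.339% and 0.181% of the much deeper tumor cells. When each member was thinned to 1000 UMIs, which kept 22, 15, 31 and 31 cells, the shares were 68.2%, 80.0%, 45.2% and 51.6%. The controls remained above the treated libraries on that scale.

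Saa3, an acute phase apolipoprotein made by activated macrophages, followed another order. Its levels were 2.19, 12.8, 17.1 and 11.8, from 10, 52, 100 and 127 UMIs in 5, 5, 12 and 9 cells. Control 1 lay below the other libraries, and the groups overlapped. Few cells carried most of it. The 3 cells with the most Saa3 UMIs in each library held 80.0%, 96.2%, 61.0% and 78.7% of its UMIs.

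Spp1, which encodes osteopontin, stood at 3.94, 5.67, 7.88 and 4.19, and Fabp5, a fatty acid carrier, at 31.1, 17.2, 23.0 and 15.7. Neither separated the groups. Fabp5 was the leading gate gene in 14, 4, 16 and 8 members, Ccl2 in 6, 5, 7 and 10, and Saa3 in 1, 2, 9 and 5. Saa3 and Spp1 were seen together in 17 of the 114 members, out of 31 with Saa3 and 48 with Spp1. Spp1 was the least particular of these genes at the level of single cells. A UMI of Spp1 was held by 6.88%, 14.5%, 4.66% and 13.4% of the much deeper tumor cells, beside 20%, 53.3%, 42.9% and 53.1% of members. When cells were thinned as for Ccl2, the shares for Spp1 were 0.597%, 1.32%, 0.680% and 1.45% of tumor cells. Those of members were then 13.6%, 40.0%, 32.3% and 35.5%.

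The rule also used a receptor and a lysosomal gene. Fcgr1, the high-affinity receptor for IgG, stood at 5.70, 4.68, 5.14 and 6.71, and Cd68, which encodes a lysosomal glycoprotein, at 8.33, 4.43, 8.57 and 7.64. The groups overlapped for both genes.

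**Figure D3:**
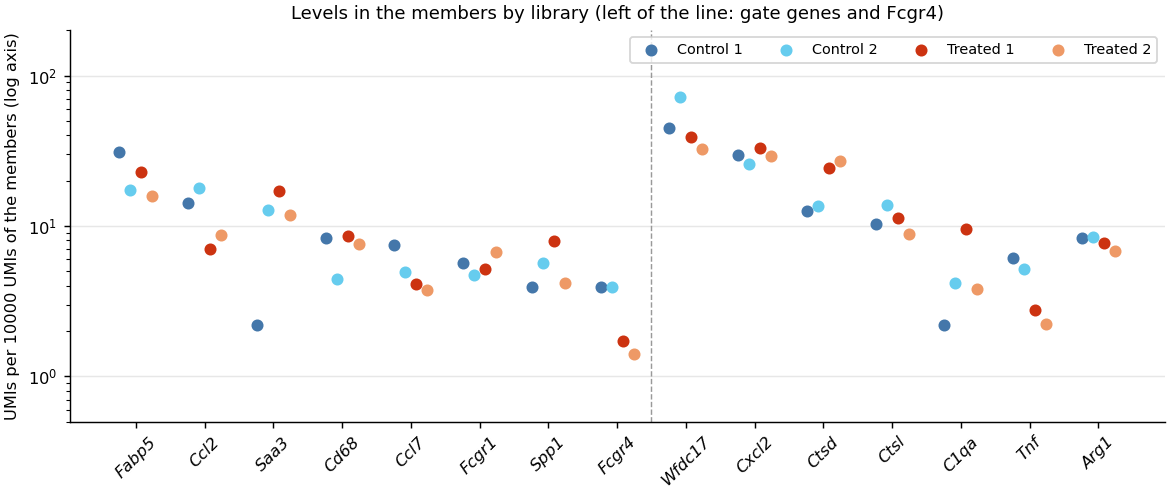
Points give the level of each gene in the members of each library, as UMIs per 10000 UMIs (log axis), for the 7 gate genes and the marker Fcgr4 left of the dashed line and 7 other genes right of it. Ccl2 and Fcgr4 lie higher in both controls (14.2 and 17.7 for Ccl2) than in both treated libraries (7.02 and 8.76), Ctsd lies higher in both treated libraries, and Saa3 is lowest in Control 1.

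The members of SP11-treated and control libraries were compared with edgeR on UMIs summed per library, over all genes that passed the filter on low counts. Results are read only for genes that the rule did not use, and all called genes were of that kind. Of 739 genes tested, 6 were higher after SP11 and 0 were lower at an adjusted p under 0.05, which is 0.812% called in either direction, 0.812% called higher and 0% called lower. At an unadjusted p under 0.05 there were 45 higher and 24 lower genes. DESeq2 called 5 higher and 0 lower. The median log2 fold change of all tested genes was 0.016, and the levels of the 2 groups did not overlap for 343 genes, or 46.4%.

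The 4 largest changes were of hemoglobin genes, the oxygen carriers of red blood cells. Hbb-bs had 7 and 8 UMIs over the control members and 2871 and 4203 in the treated members, with a log2 fold change of 8.20 (SE 0.29, edgeR adjusted p = 7.26e-08). Hba-a1 had 5 and 5 UMIs against 1962 and 2509, with a log2 fold change of 8.15 (SE 0.33, edgeR adjusted p = 1.5e-07). Hbb-bt and Hba-a2 had 0 UMIs in both controls. Taken against a floor of 3 counts over the control group, they were at least 109.97-fold and at least 17.2-fold higher (edgeR adjusted p = 2.73e-06 and 0.00318). All 4 calls were lost when the rule asked for only 2 UMIs, which added 1 cell of Control 2 with 2006 hemoglobin UMIs, with Hbb-bs then at a log2 fold change of 2.09 (edgeR adjusted p = 0.712) and Hba-a2 at −1.61.

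The hemoglobin transcripts were spread unevenly over the members and were not particular to them. They took 0.0263%, 0.0320%, 8.78% and 6.67% of the members' UMIs, while the median member of the treated libraries had 0.413% and 0.334%. Over 10% hemoglobin was reached by 6 members of Treated 1 and 4 of Treated 2, with maxima of 64.1% and 53.7%. Tumor cells of the treated libraries held 55.4 and 59.4 UMIs of Hbb-bs per cell on average against 1.87 and 1.90 in the controls, and members 68.4 and 131 against 0.28 and 0.533. The part of free RNA or of attached red cells in these values was not tested. With the members over 10% left out, an alternative chosen after seeing the data, Hbb-bs and Hba-a1 were still called (log2 fold changes 3.99 and 4.16), Hbb-bt and Hba-a2 were too low to be tested, and 4 genes were called in all.

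Ctsd, the gene of the lysosomal protease cathepsin D, was the called gene with a known macrophage function. It had 57, 55, 141 and 290 UMIs, or levels of 12.5, 13.6, 24.2 and 27.0, so that both treated libraries were above both controls. Its log2 fold change was 1.21 (SE 0.19, edgeR adjusted p = 0.0158). The median was 2, 2, 2 and 3 UMIs per member, and 1 cell of Treated 2 held 116 UMIs, or 40% of that library's Ctsd. Without the highest Ctsd cell of each library, chosen after seeing the data, the log2 fold change was 0.94 and the call was lost (edgeR adjusted p = 0.0831). The call was also lost when the rule asked for only 2 UMIs (edgeR adjusted p = 0.367).

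The remaining called gene was Gm42418, a transcript that overlaps a ribosomal RNA locus, so its UMIs may be read from ribosomal RNA. Its levels were 91.1, 129, 339 and 201, with a log2 fold change of 1.53 (SE 0.27, edgeR adjusted p = 0.0311). In tumor cells its levels were 43.2, 43.1, 77.6 and 49.5, and in Fn1-side cells of the treated libraries 692 and 548. DESeq2 did not call it (adjusted p = 0.0857), nor did edgeR when the rule asked for only 2 UMIs (adjusted p = 0.455).

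**Figure D4:**
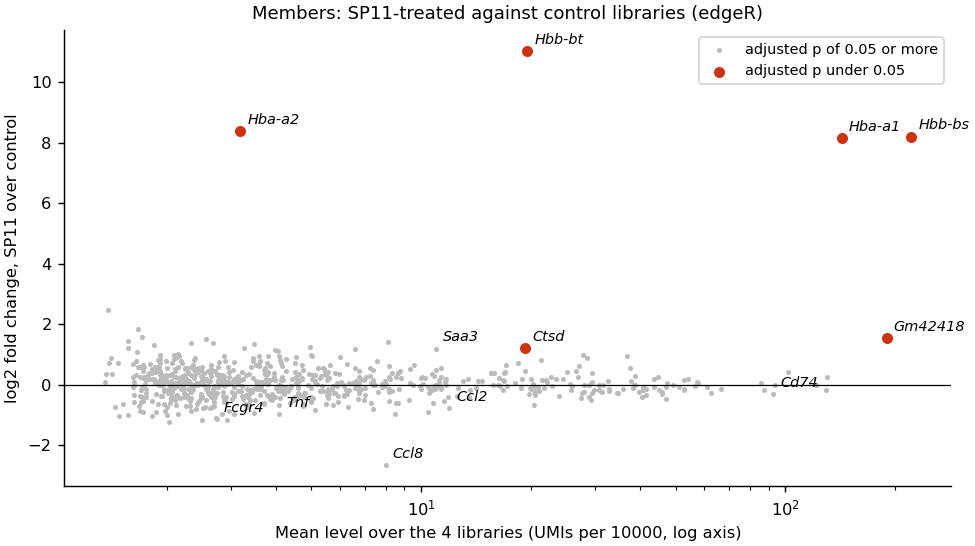
Each point is 1 of 739 genes tested in the members, with its mean level over the 4 libraries in UMIs per 10000 (x, log axis) and its edgeR log2 fold change of SP11 over control (y). The 6 red points passed an adjusted p of 0.05: 4 hemoglobin genes, with Hbb-bs at 8.20 and Hba-a1 at 8.15, and Gm42418 and Ctsd at 1.53 and 1.21.

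Genes were then grouped by role, without those that the rule used. Over all 739 tested genes, 6.09% were higher and 3.25% lower at an unadjusted edgeR p under 0.05, and 383 log2 fold changes were positive and 356 negative. In the groups, the same threshold was passed by 0 higher and 1 lower of 8 chemokine genes, 1 and 1 of 13 acute phase and cytokine genes, 4 and 1 of 17 lipid and lysosome genes, 0 and 1 of 6 Fc receptor genes, 2 and 0 of 6 complement and resident macrophage genes, 1 and 1 of 3 genes of the M1 and M2 sets, 0 and 2 of 13 glycolysis and hypoxia genes, and 1 and 0 of 5 monocyte genes. These groups are small and were not tested as groups. For MHC class II, interferon, heat shock, matrix and cell cycle genes there were 0 in either direction. DESeq2 called 0 genes of every group except the lipid and lysosome genes, where it called 1, Ctsd.

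Of 18 chemokine genes outside the rule, 8 passed the filter on low counts and 0 were called in either direction, with a median log2 fold change of −0.27. Ccl6, a chemokine made constitutively by mouse myeloid cells, was abundant at 72.7, 73.9, 56.5 and 47.0. Cxcl2, which recruits neutrophils, stood at 29.8, 25.6, 33.1 and 29.2 (log2 fold change 0.39, edgeR adjusted p = 0.569). Neither was called, although both treated libraries were below both controls for Ccl6. Ccl3 and Ccl4, inflammatory chemokines of macrophages, were low, at 2.63, 2.71, 1.20 and 2.61 for Ccl3 and 3.94, 5.17, 0.857 and 3.35 for Ccl4.

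Ccl8, singled out after its values were seen, was carried by very few members. It had 112, 12, 24 and 4 UMIs in 6, 2, 3 and 2 cells, and 95 of the 112 UMIs of Control 1 were in 1 cell. Its log2 fold change was −2.66 (SE 0.95, edgeR adjusted p = 0.414). It had 0 UMIs in the Fn1-side cells of the treated libraries.

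Of 26 acute phase and cytokine genes outside the rule, 13 were tested and 0 were called in either direction, with a median log2 fold change of 0.039. Wfdc17, a secreted protein of activated macrophages, stood at 44.7, 72.4, 39.1 and 32.4 (log2 fold change −0.48, edgeR adjusted p = 0.569). Tnf, an inflammatory cytokine, stood at 6.13, 5.17, 2.74 and 2.24 in 16, 9, 12 and 15 cells, lower in both treated libraries (log2 fold change −0.98, SE 0.34, edgeR adjusted p = 0.414). That difference did not pass the test. Il1b stood at 1.97, 3.45, 3.94 and 4.47, and Nfkbia, the feedback inhibitor of NF-kB, at 9.20, 7.64, 9.08 and 11.4. Il6 was nearly absent, with 1, 0, 1 and 11 UMIs.

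Of 27 lipid and lysosome genes outside the rule, 17 were tested, 1 was called higher, Ctsd, and 0 were called lower. The median log2 fold change was 0.36, with 12 positive and 5 negative, beside 383 and 356 over all tested genes, of which 0.812% were called. Psap, the precursor of the saposins that aid lipid breakdown, stood at 17.5, 16.5, 20.9 and 30.3 (log2 fold change 0.83, edgeR adjusted p = 0.226). Grn, the progranulin gene, stood at 3.72, 3.20, 5.83 and 5.40 (0.91, edgeR adjusted p = 0.414), and the cysteine protease gene Ctsb at 15.1, 14.3, 21.8 and 17.4 (0.63, edgeR adjusted p = 0.414). For these 3 genes both treated libraries lay above both controls, and none passed the test. Groups did not overlap for 9 of the 17 genes, or 52.9%, near the 46.4% of all tested genes. Cst3, the secreted cathepsin inhibitor cystatin C, had a log2 fold change of 0.98 (SE 0.23, edgeR adjusted p = 0.141). Psap, Grn and Cst3 were picked out after their values were seen.

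Other genes of the same list did not follow Ctsd. Ctsl, another lysosomal protease, stood at 10.3, 13.8, 11.3 and 8.85, Npc2, a cholesterol carrier of the lysosome, at 17.7, 22.9, 20.4 and 19.1, and Lgals3, the lectin galectin-3, at 36.2, 31.8, 24.7 and 26.9. Apoe, a lipid carrier, stood at 14.2, 5.91, 14.7 and 8.10. The lipid receptor gene Trem2 had 3, 12, 15 and 28 UMIs. Hmox1, the heme-degrading enzyme, stood at 4.38, 4.19, 1.71 and 1.96, below both controls in both treated libraries, and was not called (log2 fold change −0.97, edgeR adjusted p = 0.43).

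Among Fc receptors and their adaptors, 6 of 12 genes outside the rule were tested and 0 were called in either direction, with a median log2 fold change of 0.064. Fcgr4, the IgG2 receptor that belongs to the markers of these cells, stood at 3.94, 3.94, 1.71 and 1.40, from 18, 16, 10 and 15 UMIs. Both treated libraries lay below both controls, and the log2 fold change of −1.14 did not pass the test (SE 0.38, edgeR adjusted p = 0.414). A UMI of Fcgr4 was found in 56.0%, 66.7%, 21.4% and 34.4% of members and in 0.474%, 0.189%, 0.254% and 0.362% of tumor cells. After thinning to 1000 UMIs the shares were 36.4%, 33.3%, 9.68% and 9.68%. The other Fc receptors differed less between groups, at 6.35, 3.70, 3.77 and 4.56 for the inhibitory Fcgr2b and 5.92, 4.43, 3.60 and 4.47 for Fcgr3.

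Complement and resident macrophage genes were sparse. Of 23, 6 were tested and 0 were called in either direction, with a median log2 fold change of 0.55. C1qa, a chain of the C1q complex, stood at 2.19, 4.19, 9.59 and 3.82 in 4, 2, 12 and 7 cells. C1qb stood at 1.75, 3.70, 6.17 and 4.29 (log2 fold change 1.15, edgeR adjusted p = 0.415). Treated 1 was the highest library for both genes, and for C1qa the groups overlapped. The mannose receptor gene Mrc1 had 10, 0, 5 and 16 UMIs.

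Of 8 MHC class II genes, which present peptides to helper T cells, 6 were tested and 0 were called in either direction, with a median log2 fold change of −0.11. Cd74, the invariant chain, stood at 133, 87.2, 72.1 and 79.2, with both treated libraries below both controls. H2-Aa stood at 22.1, 15.5, 13.02 and 18.2 and H2-Ab1 at 21.0, 10.8, 19.2 and 17.1, where the groups overlapped.

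The study describes macrophages by M1 genes, taken here as Il1b, Nos2, Tnf and Cd86, and M2 genes, taken here as Arg1, Mrc1, Il10, Chil3 and Retnla. Of these 9 genes, 3 were tested and 0 were called in either direction. UMIs of both sets were found in the same cell in 11 of 25, 10 of 15, 10 of 42 and 15 of 32 members, and UMIs of neither in 2, 1, 6 and 4. A UMI of the M1 set was found in 76%, 86.7%, 50% and 81.2% of members and one of the M2 set in 60%, 73.3%, 59.5% and 53.1%. The share with both was 44.0%, 66.7%, 23.8% and 46.9% as deposited and 22.7%, 33.3%, 22.6% and 25.8% after thinning to 1000 UMIs. The products of the single shares as deposited, 45.6%, 63.6%, 29.8% and 43.2%, were close to the shares with both. Arg1, the arginine-degrading enzyme, stood at 8.33, 8.38, 7.71 and 6.80. Nos2, which competes for the same amino acid, had 1, 0, 1 and 3 UMIs, and the cytokine gene Il10 had 0 in all libraries.

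For interferon, heat shock, glycolysis and hypoxia, matrix, monocyte and cell cycle genes, 0 were called in either direction (edgeR). Of 27 interferon genes 6 were tested, with a median log2 fold change of −0.10, and Ifitm3, a membrane antiviral protein, stood at 57.8, 63.1, 59.3 and 49.1. Of 19 heat shock genes 8 were tested, with a median of −0.021. SP11 is directed at HSP90, whose genes Hsp90ab1 and Hsp90aa1 stood at 24.3, 19.2, 21.1 and 16.7 and at 3.94, 5.17, 3.08 and 4.29. The groups overlapped for both. The inducible Hspa1a, a usual reporter of the heat shock response, had 1, 1, 3 and 3 UMIs, too few to compare.

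Of 20 glycolysis and hypoxia genes 13 were tested, with a median log2 fold change of −0.14. Gapdh, a glycolytic enzyme, stood at 63.5, 55.9, 44.5 and 47.2, and Hif1a, a hypoxia-inducible factor picked out after its values were seen, at 3.72, 3.45, 1.71 and 1.12 (log2 fold change −1.18, edgeR adjusted p = 0.414). Both treated libraries were below both controls for these genes, and neither was called. Of 16 matrix and protease genes outside the rule 4 were tested, with a median of 0.45, and of 20 cell cycle genes 4 were tested, with a median of −0.010. Mki67, a gene of dividing cells, had 2, 1, 1 and 5 UMIs. Of 13 monocyte genes outside the rule 5 were tested, with a median of 0.28.

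In the treated libraries, where both myeloid classes were numerous, the members could be set beside the Fn1-side cells. Since the classes were formed from the same counts, these ratios describe the classes and carry no test. Genes were compared if they had at least 40 UMIs over both classes and were seen in both classes of both treated libraries. Of 1781 such genes outside the rule, 24 had levels over 2 times higher in members in both treated libraries. A further 79 had under 0.5 times the level in both. Genes absent from either class, such as Ccl8, could not enter these lists. The genes named here were picked from those lists after their ratios were seen, for their known roles. Wfdc17 was 5.80 times higher in Treated 1 and 5.76 times in Treated 2, Ctsl 3.97 and 3.94 times, and Cd274, which encodes the checkpoint ligand PD-L1, 6.91 and 4.30 times from 14 and 38 UMIs in members. Prtn3, a protease gene of myeloid granules, was 4.94 and 11.04 times higher from 6 and 38 UMIs. The iron storage gene Fth1 was 2.29 and 2.65 times higher in members. Ftl1 was 2.99 and 3.61 times higher on its own and 1.93 and 2.41 times higher when counted together with Ftl1-ps1, a near-identical sequence described below.

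The Fn1-side cells carried more of other genes. The calcium-binding gene S100a4 was 0.325 and 0.294 times as high in members, and the tubulin-associated gene Tppp3 0.192 and 0.193 times. Cd44, a hyaluronan receptor, stood at 5.31 and 4.10 in treated members and 8.40 and 11.2 in Fn1-side cells. Inflammatory genes did not all lie on the side of the members. Cxcl2 stood at 36.4 and 36.6, Il1b at 6.87 and 7.33 and Ccl9 at 10.3 and 9.94 in the Fn1-side cells, against 33.1 and 29.2, 3.94 and 4.47, and 7.71 and 6.80 in members of Treated 1 and Treated 2. Arg1 was near equal, at 8.05 and 9.02 against 7.71 and 6.80, and Tnf at 2.78 and 2.56 against 2.74 and 2.24.

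The members fell into separate sets by a ferritin light chain sequence that the rule did not use. Ftl1-ps1 is annotated as a pseudogene of Ftl1 and is close to it in sequence, so how reads divide between them is uncertain. Neither the origin of the cells that do or do not carry it nor the assignment of the reads was tested. This gene was chosen after its values were seen, and the values that follow are a description only. Of the UMIs of Ftl1 and Ftl1-ps1 together, all 25 members of Control 1 had at least 20% on Ftl1-ps1, with a lowest value of 40.7% and a median of 55.0%. All 15 members of Control 2 had 0, while the single Fn1-side cell of that library had 65%.

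Both kinds of cell were present in the treated libraries. In Treated 1, 19 members were below 10%, of which 17 were at 0, and 23 were at 21.4% or more with a median of 52.8%. In Treated 2, 15 members were below 10%, of which 12 were at 0, and 17 were at 30.0% or more with a median of 53.2%. No member of any library lay between 10% and 20%. The Fn1-side cells with at least 5 such UMIs were nearly all of the high kind, 98 of 99 in Treated 1 and 84 of 89 in Treated 2. Tumor cells carried little of it, with Ftl1-ps1 levels of 0.172, 0.0963, 0.436 and 0.285 beside Ftl1 levels of 27.4, 18.9, 26.3 and 24.98.

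**Figure D5:**
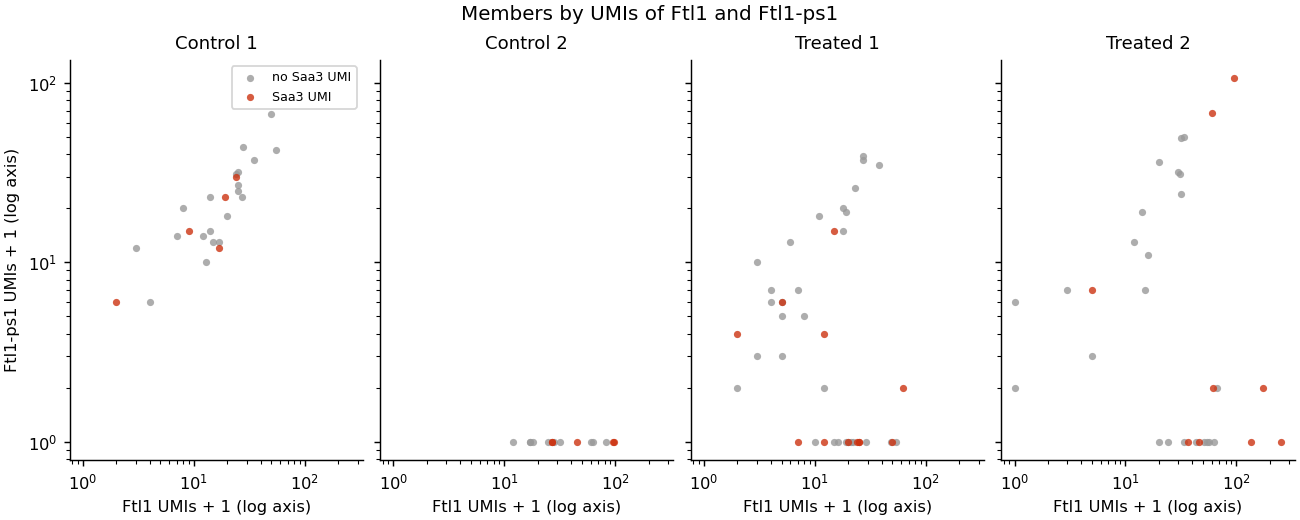
Each point is 1 member, placed by its UMIs of Ftl1 plus 1 (x, log axis) and of Ftl1-ps1 plus 1 (y, log axis), in 1 panel per library, red where it holds a UMI of Saa3 and grey where it holds none. All 25 cells of Control 1 lie along a diagonal, all 15 of Control 2 lie at 0 Ftl1-ps1 UMIs, and Treated 1 and Treated 2 hold 23 and 17 cells of the first kind and 19 and 15 of the second.

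Saa3, a gene of the rule that helped choose these cells, differed in level between these sets, with most of its UMIs in few cells. In cells low in Ftl1-ps1 its level was 12.8 for Control 2, 33.5 for Treated 1 and 20.4 for Treated 2, whereas in cells high in it the level was 2.19 for Control 1, 1.98 for Treated 1 and 1.25 for Treated 2. Within the treated libraries 94 of the 100 Saa3 UMIs of Treated 1 and 121 of the 127 of Treated 2 were in the low cells. The low cells with a Saa3 UMI numbered 8 of 19 and 6 of 15, against 4 of 23 and 3 of 17 among the high cells. These counts were taken without thinning, and the low cells were the deeper ones. Slpi, an inhibitor of neutrophil elastase, was picked out after its values were seen. Its levels were 11.3, 4.99 and 8.77 in low cells of Control 2, Treated 1 and Treated 2. In high cells of Control 1, Treated 1 and Treated 2 they were 0.219, 0.660 and 1.87. Of the 46 Slpi UMIs of Control 2, 31 were in 1 cell.

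Other genes of these macrophages were set against the same split in the treated libraries. Wfdc17 stood at 56.0 and 47.1 in low cells and 23.4 and 14.4 in high cells, and Ctsl at 17.1 and 10.1 against 5.94 and 7.28. S100a4 went the other way, at 1.43 and 1.69 in low cells and 8.24 and 9.78 in high cells, as did Cd44, at 2.85 and 3.21 against 7.59 and 5.20. Both genes were also higher in the Fn1-side cells. Hbb-bs stood at 205 and 320 in low cells and 757 and 479 in high cells, and the median UMI count per cell was 1570 and 3615 against 1157 and 2632.

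Ctsd, Gm42418 and the gate gene Ccl2 were also set against the split. Ctsd stood at 13.6 in the low cells of Control 2 and at 27.1 and 20.6 in those of Treated 1 and Treated 2, and at 12.5 in the high cells of Control 1 and 21.4 and 35.0 in those of the treated libraries. The treated cells were above the control cells of the same kind on both sides. In the high cells of Treated 2 this rested largely on 1 cell, which held 116 of their 168 Ctsd UMIs. Gm42418 stood at 128.6 in the low cells of Control 2 and at 238.9 and 126.9 in those of Treated 1 and Treated 2, so that Treated 2 was not above the control, and at 91.1 in the high cells of Control 1 and 431 and 293 in those of the treated libraries. Ccl2 stood at 17.7, 7.49 and 11.3 in the low cells of Control 2, Treated 1 and Treated 2. In the high cells of Control 1, Treated 1 and Treated 2 it stood at 14.2, 6.60 and 5.62. The treated cells were below the control cells of the same kind on both sides. Each kind had 1 control library, so this is a description with no test.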

How the data were processed

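Tumors were profiled on the 10x platform, and the authors deposited unnormalized counts of UMIs for every gene and barcode, made with Cell Ranger 7.1.0 by the file headers. The submitters' processing notes name mm10, whereas the methods name hg38, and no coordinates are used here. The 4 matrices hold 32285 genes and no normalization. Members and gene lists were chosen with earlier results of these data known. Of 286 listed genes, 2 are not analysed here.

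Cells were gated on UMIs as described, in Python 3.11.15 with scanpy 1.11.5, and figures drawn with matplotlib 3.10.9. Cells of 1 library are not replicates, so member UMIs were summed per library (40587 to 107348 UMIs, which limits precision for low genes) and tested by the quasi-likelihood test of edgeR 4.0.16 under R 4.3.3, after filterByExpr and TMM normalization. P-values were adjusted by Benjamini-Hochberg over all genes tested, with a threshold of 0.05. The step was tested on simulated data. Genes that the rule used are given without a test. Shares have 95% exact Clopper-Pearson intervals (scipy 1.17.1), which cover counting error only, and were compared by a two-sided exact permutation test. Folds against 0 UMIs use a floor of 3 counts over the control group. For shares of cells with a UMI, cells were thinned to 1000 UMIs and shallower cells left out.

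Genes named are those of the rule, its markers, the members of each list with the highest level or a call, and up to 10 called genes in each direction whose groups do not overlap. Others were chosen after their values were seen. Doublets were scored with Scrublet and kept, since at a score of 0.25, fixed because the automatic limit moved with its seed, 0 members were called. Alternatives were a mitochondrial limit of 20%, 500 genes, sums of 2 or 5 UMIs, no Fabp5, no keratin UMI, thinning of all cells before the rule (shares only), DESeq2 1.42.0, its size factors (RLE), no filter, hemoglobin and immunoglobulin genes left out, the replicate number as a block, and each library left out. Added after seeing the data were Scrublet's fixed limit, and leaving out members over 10% hemoglobin or the highest Ctsd cell of each library.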

Additional observations from a re-analysis of the deposited data

How the results depend on the processing

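The difference in the share of kept cells was −0.0763 points and changed sign with a mitochondrial limit of 20% (0.0205 points), at least 500 genes (0.0728) and no keratin UMI (0.247). Over libraries left out it ran from −0.396 to 0.243 points, the highest without Treated 1. The share of myeloid cells was lower in treated libraries under every alternative run, with differences from −67.8 to −49.97 points. The count of 6 higher genes became 0 with a sum of at least 2 UMIs, 15 without the filter on low counts, 2 with the replicate block, 2 with hemoglobin and immunoglobulin genes left out, and 12 to 18 with 1 library left out (14 without Control 1, 18 without Control 2, 12 without Treated 1, 14 without Treated 2). All 6 genes were among the calls whichever library was left out. The count of 0 lower genes became 1 without the filter, Ccl8, and 0 to 4 with 1 library left out (4 without Control 2, 3 without Treated 1, 2 without Treated 2). With the sum of 2 UMIs, 1 added cell of Control 2 held 2006 hemoglobin UMIs, and the log2 fold change of Hba-a2 turned to −1.61 and that of Hbb-bs fell to 2.09. The log2 fold change of Ctsb was −0.012 with no keratin UMI. The cause of these changes was otherwise not tested. Deviations of same-numbered libraries had a correlation over genes of r = 0.0538. As the sums rest on few shallow cells, this value cannot tell whether replicate numbers pair the libraries. With the block, Hbb-bs and Hba-a1 remained called, and adjusted p was 0.0751 for Hbb-bt, 0.336 for Hba-a2, 0.290 for Ctsd and 0.640 for Gm42418 (edgeR). Psap passed with no keratin UMI (1.12, edgeR adjusted p = 0.0497), and its log2 fold change was 1.07 without Treated 1. Of the calls gained over the alternatives run, 6 were of Cst3, 4 of Ccl8, 2 of C1qb and 2 of Psap. Of 18 named genes under the alternatives, 289 values kept their direction and side of the threshold, 11 lost a call, 14 gained one and 2 changed sign. The 11 do not include Hba-a2 with the sum of 2 UMIs, which is counted among the sign changes and also lost its call (edgeR adjusted p = 0.749). Depth limits the sparse genes most: with 40587 UMIs summed in Control 2, genes at a handful of UMIs could not be compared.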
